A study of Homo sapiens with 12 samples.

Results

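The comparison described here asked what NH4Cl, a source of ammonia, did to gene expression in human HCT116 colon cancer cells that also received TGF-β. It set the 3 libraries of cells given NH4Cl plus TGF-β against the 3 libraries of cells given TGF-β alone, paired by replicate number, so it contrasts 6 of the 12 libraries of the series. By the study's methods, cells were kept in vehicle or in 10 mM NH4Cl for 23 h and then received 200 pM TGF-β for 1 h. The other 6 libraries, 3 of untreated control cells and 3 of cells given NH4Cl for 24 h without TGF-β, entered the fit to estimate the spread between replicates. The sample labels give neither doses nor times. Genes were included where their mean FPKM (fragments scaled to gene length and library size) over the 12 libraries was at least 1, which kept 12341 of the 25733 genes in the table. The excluded gene closest to that limit had a mean FPKM of 0.999566.

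Ammonia is a weak base that enters acidic compartments of the cell and raises their pH, the lysosome foremost. Lysosomes recycle proteins and release cholesterol from lipoproteins, and cells short of cholesterol at the endoplasmic reticulum turn on sterol genes through the transcription factor SREBP2. TGF-β signals through receptor kinases and SMAD proteins, and HCT116 is commonly described as carrying mutant TGFBR2, the type II receptor gene.

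The TGF-β libraries held 18191998, 14830829 and 15073706 reads on genes in replicates 1, 2 and 3, and the NH4Cl plus TGF-β libraries held 15671088, 14807630 and 17620222. In all 4 groups the library with replicate number 3 stood apart from the other 2. The share of reads on mitochondrial genes was 4.50% and 4.69% in the replicate 3 libraries of the TGF-β and NH4Cl plus TGF-β groups and 2.46% to 3.16% in their other 4 libraries. The first principal component, with 52.5% of the variance, ran from -17.5 to -4.07 in the 8 libraries with replicate numbers 1 and 2 and from 16.7 to 27.8 in the 4 with number 3. The second, with 15.5%, was above 0 in the 6 libraries without NH4Cl and below 0 in the 6 with it. Nothing in the labels says what the replicate number stands for, or that replicates came from separate cultures, so the p-values measure only the spread between these samples.

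The libraries were those of epithelial cells. KRT8 stood at 800.1, 785 and 1102 FPKM in the TGF-β libraries and at 802, 781 and 985 FPKM with NH4Cl, and EPCAM at 247, 238 and 229 FPKM and 278, 269 and 267 FPKM. Of 14 markers of fibroblasts, endothelium and immune cells, 3 reached a mean FPKM of 1, and the most abundant was LUM at 7.33, 7.21 and 7.43 FPKM in TGF-β and 8.54, 7.85 and 8.22 FPKM in NH4Cl plus TGF-β libraries. The endothelial gene VWF rose from 1.6, 1.27 and 3.98 FPKM to 2.44, 2.42 and 6.44 FPKM (log2 fold change 0.52, SE 0.0752, adjusted p = 0.00181), with TGF-β replicate 3 above NH4Cl plus TGF-β replicates 1 and 2. The summed level of the listed markers was 11.6, 10.9 and 14.4 FPKM in TGF-β libraries and 13.7, 13.4 and 19.1 FPKM with NH4Cl, while COL3A1 was listed at 0 in the 3 NH4Cl plus TGF-β libraries. With the replicate number left out of the fit, the adjusted p of VWF was 0.675. Of the same list, COL1A2, COL3A1, DCN and PECAM1 were at most 0.0911 FPKM in the 12 libraries, unlike LUM and VWF. What part these markers have in any result was not tested. Of 5 epithelial markers 1 rose, EPCAM with a log2 fold change of 0.19, and 2 fell, KRT19 with -0.29 and CDH1 with -0.19. The call on CDH1 ended without TGF-β replicate 1 or 3 (adjusted p = 0.102, 0.0878) or NH4Cl plus TGF-β replicate 1 or 3 (adjusted p = 0.075, 0.0843).

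With NH4Cl, the stress cytokine GDF15 and most genes of cholesterol synthesis rose, while most chemokines and keratins tested fell. In all, 2322 genes differed at an adjusted p under 0.05 (corrected over all genes tested), which is 18.8% of the 12341 tested. Of these, 1275 rose (10.3% of genes tested) and 1047 fell (8.48%). Changes were mostly small, with a median size of 0.25 on the log2(FPKM + 1) scale, and 12 genes rose and 6 fell by at least 1. The direction was the same in 3 of 3 pairs for 2318 of the 2322. A fit that compares within replicate numbers favours such genes, so this is no separate support. The libraries of the groups did not overlap for 1130 called genes, against 2017 (16.3%) of all genes tested. The fit takes the replicate number as a block, so that each library is compared within its number, and without that block it called 127 genes (1.03%), all of them among the 2322. With replicate numbers 1 and 2 only, 1653 genes passed with the block and 1740 without it, the latter chosen after seeing the data. The count was 1125 with only the 6 libraries in the fit, and leaving out TGF-β replicate 1 or 2 or NH4Cl plus TGF-β replicate 1 or 2 gave 1339, 1249, 1413 and 1427. In bulk RNA, fewer cells expressing a gene and less RNA per cell cannot be told apart.

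**Figure D1:**
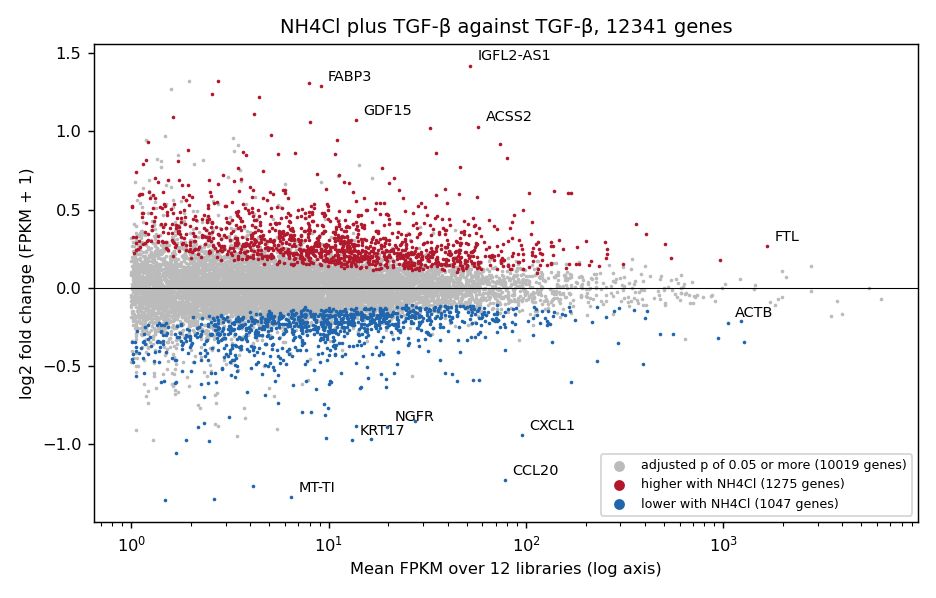
Each point is 1 of the 12341 genes tested, by mean FPKM over the 12 libraries (log axis) and log2 fold change of NH4Cl plus TGF-β against TGF-β on the log2(FPKM + 1) scale. The 1275 genes that rose are red, the 1047 that fell are blue, and the largest changes belong to genes of low and middling abundance.

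Where mean FPKM was 5 or more, the largest rise was that of IGFL2-AS1, a long noncoding RNA, at 19.2, 12 and 59.6 FPKM in TGF-β and 52.8, 44.9 and 123 FPKM in NH4Cl plus TGF-β libraries (log2 fold change 1.42, SE 0.178, adjusted p = 0.000953). Its groups overlapped, because TGF-β replicate 3 lay above NH4Cl plus TGF-β replicates 1 and 2. FABP3, a fatty acid binding protein, went from 4.14, 3.72 and 7.37 FPKM to 11.3, 11 and 19 FPKM (log2 fold change 1.29, SE 0.047, adjusted p = 1.53e-06). GDF15 (ENSG00000130513, chr19:18374731-18389176 in GRCh38), a secreted stress cytokine of the TGF-β superfamily, went from 7.76, 7.07 and 10.8 FPKM to 15.8, 16.4 and 25.6 FPKM (log2 fold change 1.07, SE 0.0582, adjusted p = 1.75e-05). For both genes the lowest NH4Cl plus TGF-β library was above the highest TGF-β library. ACSS2, which makes acetyl-CoA from acetate, went from 29.9, 28.1 and 56.3 FPKM to 60.3, 59.9 and 117 FPKM (log2 fold change 1.03, SE 0.0497, adjusted p = 1.15e-05), and its groups did not overlap either. The cytidine deaminase gene CDA rose by 1.02, the nucleotidase gene ENTPD8 by 0.92, the pseudogene IGFL1P1 by 0.94 and the noncoding AC120498.4 by 1.31 on the log2 scale. PNPLA7, a lysophospholipase gene, rose by 1.06, and HPN, which encodes the membrane protease hepsin, went from 3.25, 3.18 and 3.3 FPKM to 8.32, 7.96 and 5.98 FPKM. Of these 10 genes, 8 had groups that did not overlap, and 3 also passed without the replicate block, AC120498.4 (adjusted p = 0.043), PNPLA7 (adjusted p = 0.043) and HPN (adjusted p = 0.0148).

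Where mean FPKM was 5 or more, the largest falls were led by the mitochondrial tRNA gene MT-TI, at 10.9, 5.73 and 7.97 FPKM in TGF-β and 2.72, 0.948 and 5.12 FPKM in NH4Cl plus TGF-β libraries (log2 fold change -1.34, SE 0.287, adjusted p = 0.0116), whose call ended without TGF-β replicate 1 (adjusted p = 0.0536) or NH4Cl plus TGF-β replicate 2 (adjusted p = 0.0517). These values rest on few reads, 14, 6 and 8 reads against 3, 1 and 6. CCL20 (ENSG00000115009, chr2:227805739-227817564), a chemokine that draws lymphocytes and dendritic cells, went from 133, 142 and 57.7 FPKM to 59.9, 52.8 and 25.6 FPKM (log2 fold change -1.23, SE 0.091, adjusted p = 7.44e-05). TGF-β replicate 3 was lower than NH4Cl plus TGF-β replicate 1, so the groups overlapped, while each pair fell. The neutrophil chemokine CXCL1 went from 143, 152 and 82 FPKM to 73.5, 75.1 and 44.5 FPKM (log2 fold change -0.94, SE 0.0591, adjusted p = 3.14e-05), with no overlap. NGFR, a receptor of neurotrophins, went from 27.6, 28.5 and 23.5 FPKM to 14.5, 15.5 and 11.7 FPKM (log2 fold change -0.89, SE 0.0496), with no overlap, and was the 1 gene of these 10 that passed without the block (adjusted p = 0.0346). The related chemokines CXCL3 and CXCL6 had log2 fold changes of -0.88 and -0.85, the decoy receptor gene TNFRSF11B -0.82 and the noncoding AC147651.2 -0.97. The keratin KRT17 went from 13.8, 11.3 and 29.8 FPKM to 6.81, 5.12 and 14.4 FPKM, and KRT6A from 9.55, 7.69 and 24.7 FPKM to 4.2, 4.27 and 10.7 FPKM, both with replicate 3 highest in each group. The call on KRT6A ended without TGF-β replicate 3 (adjusted p = 0.0559) or NH4Cl plus TGF-β replicate 1 (adjusted p = 0.0665). Reads of KRT6A, KRT16 and KRT17 can be shared with near-identical copies, which makes their levels uncertain.

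**Figure D2:**
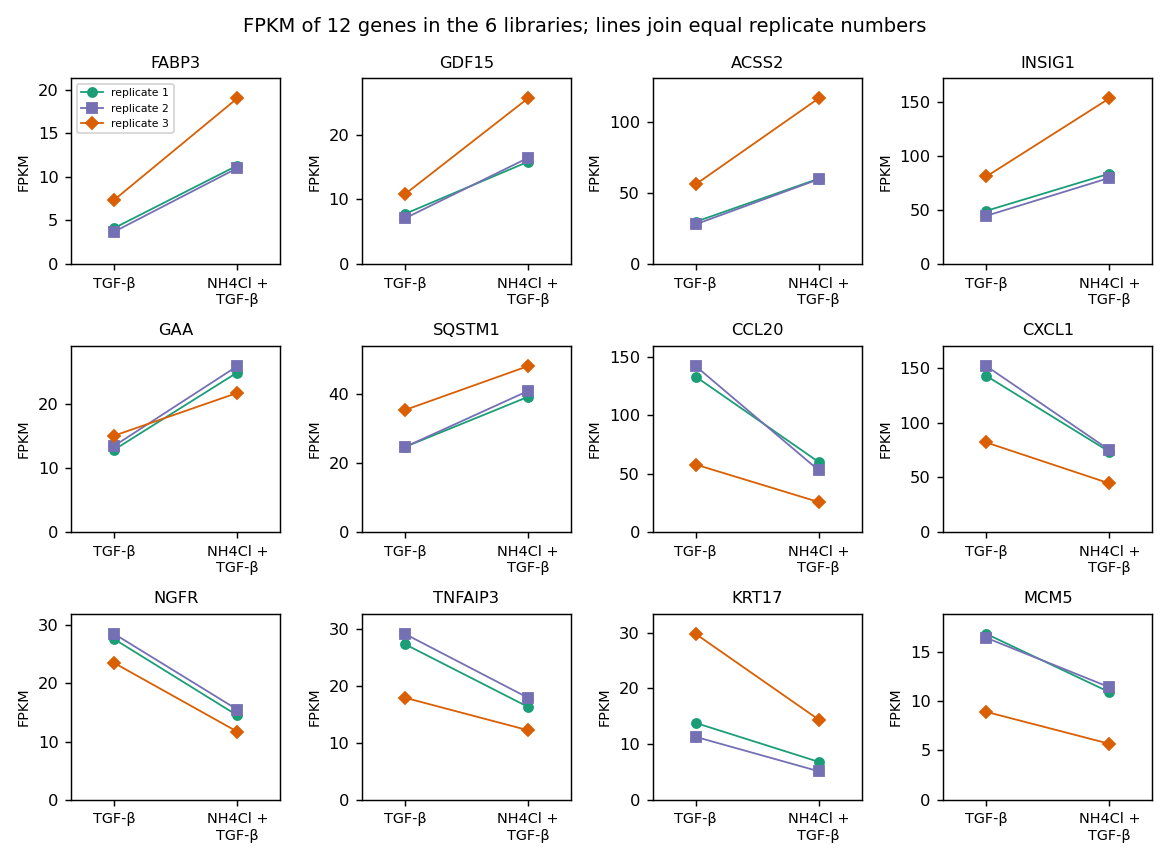
FPKM of 12 genes in the 3 TGF-β and 3 NH4Cl plus TGF-β libraries, with lines joining libraries of equal replicate number and each axis starting at 0. The lines run the same way in 3 of 3 pairs for each gene, which the rule for naming the largest changes required of some of them. Replicate 3 lies apart for some genes, as for CCL20 with 133, 142 and 57.7 FPKM in TGF-β replicates 1, 2 and 3.

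Genes of cholesterol synthesis and uptake rose together. Of 25 tested, 20 rose and 0 fell, with a median log2 fold change of 0.30 beside a median of -5.71e-05 over all genes tested, and 17 to 20 rose when 1 of the 6 libraries was left out. INSIG1, which holds the SREBP escort in the endoplasmic reticulum, went from 49.2, 44.6 and 80.9 FPKM to 83.5, 79.6 and 153 FPKM (log2 fold change 0.83, SE 0.0497, adjusted p = 2.64e-05). MSMO1, a sterol oxidase, went from 33.3, 32.7 and 41.3 FPKM to 47.8, 43.2 and 77.9 FPKM (log2 fold change 0.60), and HMGCS1, which makes HMG-CoA, from 77.4, 73.3 and 88.1 FPKM to 102, 104 and 134 FPKM (log2 fold change 0.50). The groups overlapped for INSIG1 and were apart for MSMO1 and HMGCS1. Without the block, 3 of the 25 passed. Among fatty acid genes 8 of 13 rose and 0 fell (median 0.21), led by ACSS2, the desaturase SCD at 0.41 and the regulator SREBF1 at 0.34, and 0 passed without the block. Of 8 targets of the sterol receptor LXR, 2 rose and 0 fell (median 0.18), a share called of 25% beside 18.8% of all genes tested. The call on NR1H3, which encodes LXRα and had a log2 fold change of 0.22, ended without TGF-β replicate 1 or 2 or 3 (adjusted p = 0.0666, 0.14, 0.056) or NH4Cl plus TGF-β replicate 1 or 2 (adjusted p = 0.0869, 0.122), and the list had fewer called without TGF-β replicate 2 or 3 (1, 1 called) or NH4Cl plus TGF-β replicate 1 (1 called). APOE, which carries lipids, went from 9.26, 8.75 and 8.57 FPKM to 15.5, 15.9 and 14.4 FPKM (log2 fold change 0.72), a call that held without the block (adjusted p = 0.0102).

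Of 38 lysosomal genes tested, 11 rose and 3 fell (median 0.11). The share that fell is not above the 8.48% of all genes tested that fell, and 1 to 2 fell with 1 library left out. With either direction counted, 14 passed, with fewer called without TGF-β replicate 2 (8 called) or NH4Cl plus TGF-β replicate 2 (9 called). The share of lysosomal genes called in the full fit was 36.8%, beside 18.8% of all genes tested, and 8 or 9 of 38 is not far above the latter. GAA, which breaks down glycogen in lysosomes, went from 12.9, 13.5 and 15.1 FPKM to 25, 26 and 21.8 FPKM (log2 fold change 0.77, SE 0.0817, adjusted p = 0.000494), and the cholesterol carrier NPC2 from 12.7, 14.1 and 15.2 FPKM to 20.2, 18.9 and 23.4 FPKM (log2 fold change 0.54). Groups were apart for both, and both passed without the block (adjusted p = 0.0112 and 0.0414). The calls on AGA, an amidase gene with a log2 fold change of -0.39, and on MCOLN1, a calcium channel gene with -0.20, were lost in most fits with 1 library left out, for AGA without TGF-β replicate 1 or 2 or 3 (adjusted p = 0.0716, 0.116, 0.135) or NH4Cl plus TGF-β replicate 2 or 3 (adjusted p = 0.0947, 0.149) and for MCOLN1 without TGF-β replicate 1 or 2 or 3 (adjusted p = 0.0897, 0.163, 0.0868) or NH4Cl plus TGF-β replicate 1 or 2 (adjusted p = 0.127, 0.173). Of 17 V-ATPase genes, whose products pump protons into lysosomes, 5 rose and 0 fell, with a median of 0.11 and fewer called without TGF-β replicate 1 or 3 (3, 2 called) or NH4Cl plus TGF-β replicate 1 or 3 (3, 2 called). In the full fit 29.4% of this list were called, beside 18.8% of all genes tested, and 3 or 2 of 17 is below that share. Among the V-ATPase genes ATP6V1H had the largest rise at 0.31, a call that ended without TGF-β replicate 3 (adjusted p = 0.0562) or NH4Cl plus TGF-β replicate 1 or 3 (adjusted p = 0.0658, 0.0557). ATP6V1A rose by 0.27 and the accessory subunit ATP6AP1 by 0.26, the latter also without the block (adjusted p = 0.0491). Of 37 autophagy and TFEB family genes 8 rose and 3 fell (median 0.05), with fewer called without TGF-β replicate 1 (7 called) or NH4Cl plus TGF-β replicate 2 (7 called) and 1 to 2 lower with any 1 library left out. The share called in the full fit was 29.7%, beside 18.8% of all genes tested, and 7 of 37 is close to the latter. The cargo receptor SQSTM1 went from 24.6, 24.6 and 35.3 FPKM to 39.1, 40.8 and 48 FPKM, the GTPase RRAGD from 6.26, 5.0 and 6.97 FPKM to 8.08, 7.88 and 10.1 FPKM and the folliculin gene FLCN from 1.81, 1.97 and 2.61 FPKM to 2.71, 2.74 and 3.23 FPKM, each with no overlap and none past the threshold without the block.

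GAA and MCOLN1 both hold the E-box core CACGTG, a sequence that TFEB, TFE3 and MYC can bind, 2 times within 90 bases before the start. Other lysosomal genes hold it without a change that passed, LAMP1 6 times at -0.03, CTSA and GALNS 2 times at 0.06 and 0.07 and CTSD 1 time at 0.13. NEU1 and CD63, which rose, hold it 1 time each, and the call on CD63 ended without TGF-β replicate 1 or 2 (adjusted p = 0.0647, 0.0598) or NH4Cl plus TGF-β replicate 1 or 2 (adjusted p = 0.0564, 0.0533). The stretches below are from RefSeq (GRCh38.p14), 5′ to 3′ along the gene, with the motif in capitals. On both strands the motif is in 7.26% of the 35116 promoters of 300 bases. A share for the lysosome list is not given, because 68.4% of its tested genes, under the 80% required, had a promoter in the table.
GAA, chr17:80101491-80101570, plus strand: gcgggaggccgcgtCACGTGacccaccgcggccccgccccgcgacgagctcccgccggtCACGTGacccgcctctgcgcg
MCOLN1, chr19:7522564-7522623, plus strand: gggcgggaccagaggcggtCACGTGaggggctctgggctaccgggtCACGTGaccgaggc

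Of 23 genes of the integrated stress response, which slows translation and induces repair genes, 9 rose and 0 fell (median 0.17), and 0 passed without the block. With 1 library left out, 6 to 11 rose. GDF15 led, followed by the pseudokinase TRIB3, which went from 83.7, 73.3 and 182 FPKM to 133, 129.9 and 236 FPKM (log2 fold change 0.62, SE 0.0825, adjusted p = 0.00136). DDIT3, which encodes CHOP, went from 7.99, 5.49 and 21.7 FPKM to 10.2, 10.6 and 22.8 FPKM (log2 fold change 0.41). Replicate 3 was highest in each group for TRIB3 and DDIT3, the groups overlapped, and the call on DDIT3 ended without TGF-β replicate 1 or 2 (adjusted p = 0.0824, 0.129) or NH4Cl plus TGF-β replicate 1 or 2 (adjusted p = 0.0692, 0.113). Of 20 aminoacyl-tRNA synthetase genes, 4 rose and 1 fell, with a median of 0.05 and fewer called without TGF-β replicate 1 or 2 or 3 (1, 1, 3 called) or NH4Cl plus TGF-β replicate 1 or 2 (1, 0 called). In the full fit 25% were called, beside 18.8% of all genes tested. AARS rose by 0.19 on the log2 scale, a call that ended without TGF-β replicate 1 or 2 (adjusted p = 0.115, 0.102) or NH4Cl plus TGF-β replicate 1 or 2 (adjusted p = 0.0949, 0.0805). Of 15 amino acid transporters, 2 rose, led by SLC38A2 at 0.23, and 1 fell, SLC7A5 at -0.12 (median 0.05), with fewer called without TGF-β replicate 1 or 2 (1, 1 called) or NH4Cl plus TGF-β replicate 3 (1 called). The share called in the full fit, 20%, is close to the 18.8% of all genes tested. The call on SLC7A5 ended without TGF-β replicate 1 or 2 or 3 (adjusted p = 0.0889, 0.0736, 0.102) or NH4Cl plus TGF-β replicate 1 or 3 (adjusted p = 0.105, 0.0917). The element TGATGNAA, which C/EBP and ATF proteins can bind, was in 14.8% of the 27 promoters of the stress response list and in 33.3% of the 21 of the synthetases, beside 3.62% of all promoters. It was also in 20.8% of the 24 promoters of the amino acid transporters, whose share called is close to that of all genes. Whether the genes that hold it are those that changed was not tested. The sterol response element TCACNCCAC was also searched. In the cholesterol list it was matched in SREBF2, which did not pass (log2 fold change -0.01, adjusted p = 0.853). No share is given for that list, of which 72% had a promoter in the table.

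Among enzymes that handle ammonia, glutamine and urea, 6 of 15 rose and 1 fell (median 0.10). The fall, ASL at -0.18, was not called whichever of the 6 libraries was left out. GOT1, a transaminase, went from 18.2, 17.3 and 20.9 FPKM to 24.9, 24.7 and 26.3 FPKM (log2 fold change 0.41) and passed without the block (adjusted p = 0.0457). The arginase ARG2 rose by 0.36 and PPAT, which starts purine synthesis with glutamine, by 0.24. CPS1, GLS2, ARG1 and the ammonia transporters RHBG and RHCG were below the FPKM limit. Of 9 acid and base transporters and carbonic anhydrases, 3 rose and 1 fell (median 0.00). The sodium and proton exchanger SLC9A3 went from 3.28, 3.37 and 5.22 FPKM to 5.41, 5.91 and 6.63 FPKM (log2 fold change 0.51, adjusted p = 0.00601), with no overlap, and the anion exchanger SLC26A6 and the bicarbonate transporter SLC4A7 rose by 0.38 and 0.30.

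**Figure D3:**
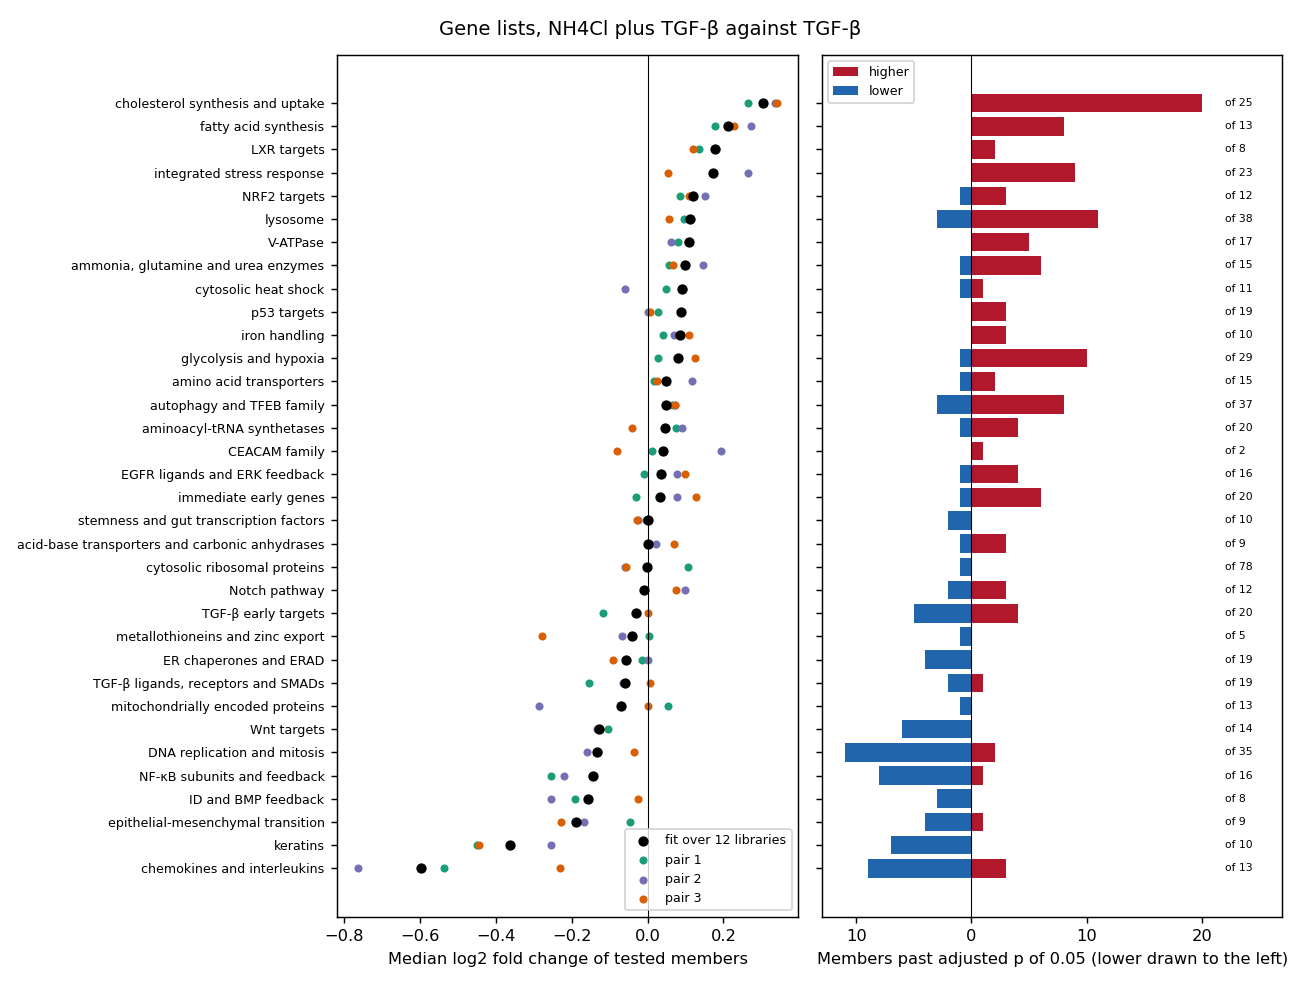
Left, the median log2 fold change of the tested members of each gene list, from the fit over 12 libraries (black) and from each replicate pair (colours). Right, the number of members past an adjusted p of 0.05, lower ones drawn to the left; cholesterol synthesis has 20 higher of 25, and chemokines have 9 lower of 13.

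Chemokine and interleukin genes mostly fell. Of 13 tested, 9 fell and 3 rose (median -0.60), 6 to 9 fell with 1 library left out and 1 passed without the block. Besides CCL20, CXCL1 and CXCL3, CXCL2 went from 11, 11.5 and 5.23 FPKM to 7.37, 5.67 and 2.2 FPKM (log2 fold change -0.80, adjusted p = 0.000776). CXCL8 went from 60.5, 56.3 and 40.9 FPKM to 35.2, 30.9 and 36.1 FPKM (log2 fold change -0.60, adjusted p = 0.0328), with no overlap, yet its call ended without TGF-β replicate 1 or 2 (adjusted p = 0.13, 0.119) or NH4Cl plus TGF-β replicate 1 or 2 (adjusted p = 0.0958, 0.119). The call on TNF, with a log2 fold change of -0.62, ended without TGF-β replicate 2 (adjusted p = 0.0615) or NH4Cl plus TGF-β replicate 2 (adjusted p = 0.0583). The genes that rose were LIF at 0.46, CXCL16 at 0.24 and IL11 at 0.31, the last not called without TGF-β replicate 2 or 3 (adjusted p = 0.143, 0.107) or NH4Cl plus TGF-β replicate 1 or 2 or 3 (adjusted p = 0.0824, 0.0663, 0.129). CXCL1, CXCL2 and CXCL3 are close copies whose reads can be shared.

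NF-κB is a transcription factor that drives many of these chemokines and its own inhibitors. Of 16 genes for its subunits and feedback, 8 fell and 1 rose (median -0.14), and 0 passed without the block. The kinase gene IKBKE went from 12.1, 11.7 and 8.0 FPKM to 7.1, 7.4 and 4.75 FPKM (log2 fold change -0.65, SE 0.0397, adjusted p = 2.88e-05). TNFAIP3, which encodes the inhibitor A20, went from 27.3, 29.1 and 17.9 FPKM to 16.3, 17.9 and 12.2 FPKM (log2 fold change -0.63), and the ubiquitin ligase BIRC3 from 21.4, 21.7 and 14.3 FPKM to 12.8, 12.4 and 11.6 FPKM (log2 fold change -0.58). The TGF-β libraries were above the NH4Cl plus TGF-β libraries for these 3 genes, by less than the rounding for TNFAIP3 in TGF-β replicate 3 and NH4Cl plus TGF-β replicate 2. NFKBIA, the inhibitor IκBα, went from 51, 52.2 and 28.9 FPKM to 36.3, 35.1 and 22.5 FPKM (log2 fold change -0.46), with overlap. The adhesion gene ICAM1 rose by 0.24, a call that ended without NH4Cl plus TGF-β replicate 2 (adjusted p = 0.0548).

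The promoters of CXCL1, CXCL2, CXCL3, CXCL8 and NFKBIA, which fell, each hold the NF-κB motif GGAATTTCC on 1 strand within 110 bases before the start. The RefSeq stretches (GRCh38.p14) run from 110 to 51 bases before the start, 5′ to 3′ along the gene, with the motif in capitals, read on the other strand for NFKBIA. The motif does not go with a fall in every gene, since the promoter of ICAM1, which rose, holds it too. Among the other listed genes with a match, NFKB1 and NFKBIB fell and REL, ATG5, OPTN and DUSP6 did not pass the threshold. The call on NFKBIB was lost whichever of the 6 libraries was left out. It is in 0.461% of the 35116 promoters and in 22.7% of the 22 promoters of the NF-κB list. No share is given for the chemokine list, of which 76.9% had a promoter in the table. A match describes these letters and was not tested for binding.
CXCL1, chr4:73869283-73869342, plus strand: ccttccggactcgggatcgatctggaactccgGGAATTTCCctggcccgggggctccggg
CXCL2, chr4:74099246-74099305, minus strand: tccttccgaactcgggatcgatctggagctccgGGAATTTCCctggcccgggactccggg
CXCL3, chr4:74038740-74038799, minus strand: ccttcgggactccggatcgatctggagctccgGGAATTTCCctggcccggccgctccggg
CXCL8, chr4:73740459-73740518, plus strand: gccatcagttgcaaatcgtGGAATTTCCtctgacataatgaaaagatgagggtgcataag
NFKBIA, chr14:35404800-35404859, minus strand: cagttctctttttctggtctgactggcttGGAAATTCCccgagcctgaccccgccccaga

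Of 20 early TGF-β target genes, 4 rose and 5 fell (median -0.03), with fewer called without TGF-β replicate 1 or 2 (5, 5 called) or NH4Cl plus TGF-β replicate 2 (5 called). With 1 library left out, 4 to 5 rose and 1 to 3 fell, and 3 fell with TPM scaling (each library set to the same sum). In the full fit 45% of the early targets were called, beside 18.8% of all genes tested, and 5 of 20 is not far above the latter. The repressor BHLHE40 went from 38.9, 35.8 and 66.7 FPKM to 56, 53.6 and 106 FPKM (log2 fold change 0.58, adjusted p = 0.000215) and the cell cycle inhibitor CDKN2B rose by 0.47. The call on CYR61, a matrix protein gene with a log2 fold change of -0.38, ended without TGF-β replicate 1 or 2 (adjusted p = 0.103, 0.158) or NH4Cl plus TGF-β replicate 1 or 2 or 3 (adjusted p = 0.145, 0.077, 0.0735). TGFB1, the ligand, went from 41.8, 40.0 and 71.1 FPKM to 55, 52.2 and 93 FPKM (log2 fold change 0.38, SE 0.0632, adjusted p = 0.00335), with replicate 3 highest in each group and overlap between the groups, and its adjusted p was 0.671 without the block. The receptor TGFBR2 fell from 9.26, 9.38 and 12.5 FPKM to 8.04, 8.29 and 9.88 FPKM (log2 fold change -0.22). Its call ended with only the 6 libraries in the fit (adjusted p = 0.0578) or replicate numbers 1 and 2 only (adjusted p = 0.0521). SMAD3 stood at 14.2, 13.8 and 18.5 FPKM and 13.4, 13.1 and 18.2 FPKM (log2 fold change -0.06, adjusted p = 0.373), and SPTBN1, its adaptor, at 19.3, 19.1 and 21.1 FPKM and 17.1, 20.5 and 22.2 FPKM (log2 fold change -0.00, adjusted p = 0.993), and neither passed the threshold. SMAD4 was listed between 0.121 and 0.221 FPKM in the 12 libraries, below the limit, with a cause that was not tested. Of 19 ligand, receptor and SMAD genes, 1 rose and 2 fell (median -0.06), with more without TGF-β replicate 3 (5 called), and none passed without the block. The share called, 15.8%, is below the 18.8% of all genes tested.

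CEACAM1, an adhesion molecule gene, went from 2.23, 2.59 and 2.7 FPKM to 3.26, 3.03 and 3.38 FPKM (log2 fold change 0.27, SE 0.0577, adjusted p = 0.0115), with no overlap, and its call ended without TGF-β replicate 1 (adjusted p = 0.0544) or NH4Cl plus TGF-β replicate 1 (adjusted p = 0.0511). It was the 1 that passed of 2 CEACAM genes tested (median 0.04). MYC, a growth regulator, went from 212, 192 and 289 FPKM to 244, 229 and 354 FPKM (log2 fold change 0.25, SE 0.0398, adjusted p = 0.00291), with overlap, and its adjusted p was 0.704 without the block. Of 20 immediate early genes, 6 rose and 1 fell (median 0.03), with fewer called without TGF-β replicate 1 or 3 (4, 4 called) or NH4Cl plus TGF-β replicate 2 or 3 (4, 4 called). In the full fit 35% of them were called, beside 18.8% of all genes tested, and 4 of 20 is close to the latter. The nuclear receptor NR4A1 led at 0.41, and the calls on FOSB (0.36) and FOS (0.34) ended without TGF-β replicate 1 or 2 (adjusted p = 0.166, 0.149) or NH4Cl plus TGF-β replicate 1 or 3 (adjusted p = 0.0891, 0.174) for FOSB and TGF-β replicate 1 or 2 or 3 (adjusted p = 0.0762, 0.13, 0.0606) or NH4Cl plus TGF-β replicate 2 or 3 (adjusted p = 0.0962, 0.121) for FOS. Of 8 ID and BMP feedback genes 3 fell and 0 rose (median -0.16), with log2 fold changes of -0.34 for ID4, -0.33 for ID1 and -0.24 for BMP4. ID4 met the FPKM limit of 1 only through the libraries without NH4Cl, so its call supports no further reading. Its means were 1.25 FPKM in control, 1.52 in TGF-β, 0.843 in NH4Cl and 0.986 in NH4Cl plus TGF-β libraries. The call on ID4 ended with only the 6 libraries in the fit (adjusted p = 0.0602) or replicate numbers 1 and 2 only (adjusted p = 0.0797). Of 16 EGFR ligand and ERK feedback genes 4 rose and 1 fell (median 0.03), the phosphatase DUSP5 most at 0.41, and EGFR itself had a log2 fold change of -0.35, a call that ended without TGF-β replicate 2 (adjusted p = 0.0508). Fewer of this list were called with TPM scaling (3) and without TGF-β replicate 1 or 2 or 3 (3, 1, 2 called) or NH4Cl plus TGF-β replicate 1 or 2 (2, 3 called), and 1 to 2 rose with any 1 library left out. Its share called in the full fit was 31.2%, beside 18.8% of all genes tested, and 3 or fewer of 16 is not above the latter.

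Most keratins tested, the filament proteins of epithelia, fell. Of 10 tested, 7 fell and 0 rose (median -0.36), 5 to 6 fell with 1 library left out and 1 passed without the block. Besides KRT17 and KRT6A, KRT16 had a log2 fold change of -0.53. Of 14 Wnt targets 6 fell and 0 rose (median -0.13), and 0 passed without the block. NOTUM, a secreted Wnt inhibitor, went from 281, 283 and 244 FPKM to 210.4, 205 and 168 FPKM (log2 fold change -0.47), with no overlap, and the stem cell factor ASCL2 and cyclin D1 (CCND1) had -0.41 and -0.25. The stem cell factor SOX2 went from 12.6, 12.7 and 11.5 FPKM to 8.5, 7.86 and 10.4 FPKM (log2 fold change -0.43), and LFNG, which modifies Notch receptors, from 69, 68.8 and 76.8 FPKM to 48.3, 44.8 and 48.2 FPKM (log2 fold change -0.59). Both passed without the block (adjusted p = 0.0474 and 0.00667). The stemness list had 0 of 10 higher and 2 lower (median 0.00), 20% called beside 18.8% of all genes tested, and more without NH4Cl plus TGF-β replicate 3 (4 called). The Notch list had 3 of 12 higher and 2 lower (median -0.01), with the receptor NOTCH3 and the ligand DLL3 rising by 0.39 and 0.41. Neither passed without the block (adjusted p = 0.683 and 0.224). The call on NOTCH3 also ended with only the 6 libraries in the fit (adjusted p = 0.0565) or replicate numbers 1 and 2 only (adjusted p = 0.0816). Of 9 genes of the epithelial-mesenchymal transition 1 rose and 4 fell (median -0.19), led by the tight junction gene CLDN1 at -0.59 and the protease MMP7 at -0.58, with fewer called without TGF-β replicate 1 or 2 or 3 (3, 3, 3 called) or NH4Cl plus TGF-β replicate 1 or 2 or 3 (3, 3, 2 called). In the full fit 55.6% of this list were called, beside 18.8% of all genes tested, and 2 of 9 is close to the latter.

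Of 35 genes of DNA replication and mitosis, 11 fell and 2 rose (median -0.13), with fewer called without TGF-β replicate 1 or 2 (7, 5 called) or NH4Cl plus TGF-β replicate 1 or 2 (6, 7 called). With 1 library left out, 4 to 13 fell and 0 to 2 rose. In the full fit 37.1% of the list were called, beside 18.8% of all genes tested. The 5 to 7 of 35 called in the fits just named is close to or below that 18.8%. The helicase subunit MCM5 went from 16.8, 16.4 and 8.9 FPKM to 10.9, 11.4 and 5.67 FPKM (log2 fold change -0.55, SE 0.0439, adjusted p = 0.000113), with replicate 3 lowest in each group, and MCM2 and MCM4 had -0.33 and -0.29. None of the list passed without the block.

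Of 29 glycolysis and hypoxia genes, 10 rose and 1 fell (median 0.08). The aldolase ALDOC went from 17.6, 14.2 and 47.8 FPKM to 34.7, 31.4 and 70.5 FPKM (log2 fold change 0.86), the pyruvate kinase PKLR rose by 0.81 and ANKRD37 by 0.51. PKLR passed without the block (adjusted p = 0.00667). It met the FPKM limit of 1 only through the libraries with NH4Cl, where it was higher, so the call supports no further reading. Its group means were 0.652 FPKM in control, 0.56 in TGF-β, 1.8 in NH4Cl and 1.74 in NH4Cl plus TGF-β libraries. Of 19 endoplasmic reticulum chaperone genes 4 fell and 0 rose (median -0.06), led by the calcium binding chaperones CALR at -0.36 and CANX at -0.18, with fewer called without TGF-β replicate 1 or 3 (2, 2 called) or NH4Cl plus TGF-β replicate 3 (2 called). PDIA4, a disulfide isomerase gene with -0.16, lost its call without TGF-β replicate 1 or 3 (adjusted p = 0.0516, 0.0532) or NH4Cl plus TGF-β replicate 3 (adjusted p = 0.0527). Iron genes had 3 of 10 higher and 0 lower (median 0.08), the ferritin subunits FTH1 at 0.34 and FTL at 0.27 and the transferrin receptor TFRC at 0.32. The share of iron genes called was 30%, beside 18.8% of all genes tested, and 0 passed without the block. Of 19 p53 targets 3 rose and 0 fell (median 0.09), led by BBC3 at 0.54 and CCNG1 at 0.34. The 15.8% of p53 targets called is below the 18.8% of all genes tested, and the 21.1% of chaperone genes is close to it.

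Another 5 lists had 1 to 4 called genes each. Counts of genes higher and lower were 1 and 1 of 11 for cytosolic heat shock (median 0.09), 3 and 1 of 12 for targets of the oxidative stress factor NRF2 (median 0.12) and 0 and 1 of 5 for metallothioneins and zinc export (median -0.04). They were 0 and 1 of 78 for cytosolic ribosomal proteins (median -0.00) and 0 and 1 of 13 for mitochondrially encoded proteins (median -0.07). Beside the 18.8% of all genes tested that were called, the shares were 18.2%, 33.3%, 20%, 1.28% and 7.69% in that order. Ribosomal protein calls came to other numbers without TGF-β replicate 1 or 2 or 3 (2, 0, 0 called) or NH4Cl plus TGF-β replicate 1 or 2 (8, 0 called), and to 6 with TPM scaling, 2 higher and 4 lower. Calls among mitochondrially encoded proteins came to other numbers without TGF-β replicate 1 or 2 (0, 0 called) or NH4Cl plus TGF-β replicate 1 or 2 or 3 (3, 0, 0 called). NRF2 targets had fewer called without TGF-β replicate 1 or 2 (2, 1 called) or NH4Cl plus TGF-β replicate 1 or 2 or 3 (1, 0, 2 called). HMOX1, the heme oxygenase gene and the largest rise of that list at 0.33, lost its call without TGF-β replicate 1 or 2 (adjusted p = 0.145, 0.0856) or NH4Cl plus TGF-β replicate 1 or 2 or 3 (adjusted p = 0.144, 0.0711, 0.058). The small heat shock protein gene HSPB1 rose by 0.21, a call that ended without TGF-β replicate 1 or 2 (adjusted p = 0.0563, 0.0597). HSPA8, with -0.15, lost its call without TGF-β replicate 2 (adjusted p = 0.0678) or NH4Cl plus TGF-β replicate 3 (adjusted p = 0.051). NQO1, a quinone reductase gene, rose by 0.20, a call that ended without TGF-β replicate 2 or 3 (adjusted p = 0.10, 0.103) or NH4Cl plus TGF-β replicate 1 or 2 or 3 (adjusted p = 0.107, 0.0614, 0.0621). MT1E, a metal binding protein gene, had a log2 fold change of -0.42, with a call that ended without TGF-β replicate 1 or 2 or 3 (adjusted p = 0.0668, 0.0802, 0.132) or NH4Cl plus TGF-β replicate 2 or 3 (adjusted p = 0.126, 0.135). None of these 5 lists had a gene that passed without the block. For most lists given above without a share, the shares called in the full fit follow, to be read beside the same 18.8%. They were 80% for cholesterol, 61.5% for fatty acid, 39.1% for stress response and 46.7% for ammonia enzyme genes. Acid and base transporters had 44.4%, chemokines 92.3%, NF-κB genes 56.2%, ID and BMP genes 37.5% and keratins 70%. Wnt targets had 42.9%, Notch genes 41.7% and glycolysis and hypoxia genes 37.9%.

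Of the 3 most abundant genes that rose, FTL went from 1501, 1422 and 1589.8 FPKM to 1869, 1624 and 1945 FPKM (log2 fold change 0.27), the mitochondrial carrier SLC25A5 from 518, 514 and 502 FPKM to 599, 577 and 576 FPKM (log2 fold change 0.19) and the glutamine transporter SLC1A5 from 856, 839 and 1046 FPKM to 1008, 998 and 1087 FPKM (log2 fold change 0.18). The call on SLC1A5 ended without TGF-β replicate 1 or 2 (adjusted p = 0.139, 0.154) or NH4Cl plus TGF-β replicate 1 or 2 or 3 (adjusted p = 0.113, 0.116, 0.0511). Of the 3 most abundant that fell, ACTB went from 1148, 1139.5 and 1139 FPKM to 1012, 997 and 928 FPKM (log2 fold change -0.22), GAPDH from 1217, 1181 and 1552 FPKM to 1063, 1008 and 1338 FPKM (log2 fold change -0.21) and the mitochondrial MT-CYB from 1227, 1318 and 1494 FPKM to 1099, 819 and 1301 FPKM (log2 fold change -0.35). ACTB was lower in each NH4Cl plus TGF-β library than in any TGF-β library, the groups overlapped for GAPDH and MT-CYB, and the call on MT-CYB ended without TGF-β replicate 1 or 2 (adjusted p = 0.0986, 0.146) or NH4Cl plus TGF-β replicate 2 or 3 (adjusted p = 0.0961, 0.0744). Without NH4Cl plus TGF-β replicate 2, the library with the lowest mitochondrial share (2.46%), the log2 fold change of MT-CYB was -0.20. These 6 genes did not pass without the block.

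Among called genes with a mean FPKM under 5, the largest rises were those of RAB33A, a GTPase gene, from 0.684, 0.995 and 2.02 FPKM to 3.63, 3.9 and 6.04 FPKM (log2 fold change 1.32), the pseudogene TPSP2 (1.24) and the intronic RNA AC025857.2 (1.22). The largest falls were those of the pseudogene AC144568.1 (-1.36), MIR4737 (-1.35) and SNORD83A (-1.27), short or low genes on few reads. AC144568.1 was listed at 0 FPKM in NH4Cl plus TGF-β replicate 3 and SNORD83A in replicate 1. The call on AC144568.1 ended without TGF-β replicate 1 (adjusted p = 0.0569), and that on SNORD83A without TGF-β replicate 2 or 3 (adjusted p = 0.123, 0.105) or NH4Cl plus TGF-β replicate 1 or 2 (adjusted p = 0.126, 0.0621). RAB33A and AC025857.2 passed without the block (adjusted p = 0.0445 and 0.0354). RAB33A met the FPKM limit of 1 only through the libraries with NH4Cl, since its mean over the others was just under it. Its means were 0.765 FPKM in control, 1.23 in TGF-β, 4.47 in NH4Cl and 4.52 in NH4Cl plus TGF-β libraries. AC144568.1 met the limit only through the libraries without NH4Cl, with means of 1.65, 2.68, 1.13 and 0.47 FPKM in that order. The calls on RAB33A and AC144568.1 therefore support no further reading. AC025857.2 is annotated as lying in an intron and IGFL2-AS1 by its name as antisense, and such genes can share reads with their neighbours where counting does not use strand, which the sources used here do not state.

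The same treatment without TGF-β gave 1674 called genes, 13.6% of those tested, in 6 libraries that are not among those contrasted with TGF-β present, although 1 fit gave the spread for both. Of the 2322 genes called with TGF-β present, 1223 (52.7%) were also called in the same direction without it, which is 73.1% of the 1674, and 0 were called in opposite directions. Over the 12341 genes the log2 fold changes with and without TGF-β had a Pearson r of 0.676, a description across genes whose values share replicate numbers, and genes are not independent replicates. The interaction, which tests whether the NH4Cl change differs with TGF-β, gave 0 genes (0% of those tested) in limma, with 537 at an unadjusted p under 0.05. SAT2, an acetyltransferase gene with the smallest unadjusted p there, stood at 11.7, 11.4 and 13.4 FPKM in TGF-β and 16.6, 15.5 and 19.7 FPKM in NH4Cl plus TGF-β libraries, and at 13.5, 12.8 and 16.7 FPKM in control and 14, 12.8 and 17.6 FPKM in NH4Cl libraries. Its log2 fold change was 0.46 with TGF-β and 0.04 without, and the difference of 0.42 had an adjusted p = 0.459. A difference that misses the threshold does not show that the changes were equal. The list medians stood side by side, at 0.30 with and 0.28 without TGF-β for cholesterol genes, -0.60 and -0.39 for chemokines and -0.36 and -0.41 for keratins.

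**Figure D4:**
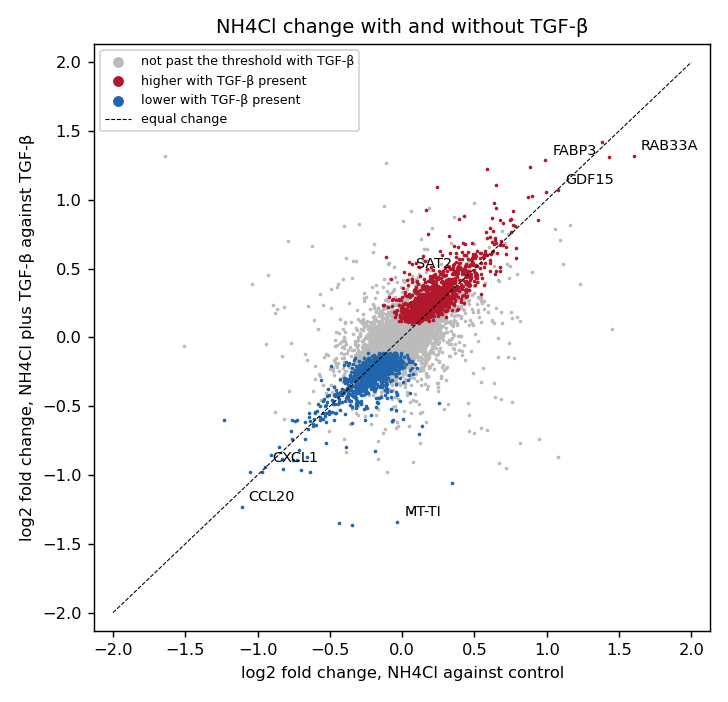
Each point is 1 of the 12341 genes tested, by log2 fold change of NH4Cl against control (horizontal) and of NH4Cl plus TGF-β against TGF-β (vertical), with a dashed line of equal change. GDF15 lies near the line with 1.08 and 1.07, while SAT2 lies above it with 0.04 and 0.46.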

How the data were processed

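RNA of HCT116 cells was sequenced in 12 libraries, 3 per group. The authors deposited FPKM values per gene. The submitters' processing notes name Trimmomatic 0.36, STAR 2.5.2b, featureCounts, Subread 1.5.2, DESeq2 and the builds GRCh38 and hg38, while the paper's methods name HTSeq2 and DESeq2. The labels and the paper name different RNA kits. The annotation and the use of strand are not given in the sources used here. FPKM times the exon length in GENCODE 29 gave whole reads for 100.0% of values (tolerance 0.1 reads), from which depth was taken. Depth ran from 14807630 to 18191998 reads on genes.

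Values were tested as log2(FPKM + 1) with limma 3.58.1 in R 4.3.3, over 4 group means and the replicate number as a block in all 12 libraries, with an intensity trend, two-sided, Benjamini-Hochberg adjusted over the 12341 genes with mean FPKM of at least 1. A fold change on this scale understates the change of low genes. The count test of the study was not run on the reads recovered. The block was kept because deviations from the group means of same-numbered libraries correlated at 0.349 to 0.774 in 18 of 18 pairs, and at 0.402, 0.531 and 0.754 in the pairs compared here. Tables and figures were made with Python 3.11.15, numpy 2.4.6, pandas 2.3.3 and matplotlib 3.10.9, and the code was tested on simulated data.

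Named are the 10 largest rises and falls with adjusted p under 0.05, mean FPKM of at least 5 and 3 of 3 pairs in 1 direction; the 3 largest rises and falls under 5; TGFB1, MYC, SMAD3, GDF15, SPTBN1 and CEACAM1; members of the gene lists, those called with the largest change first; the gene with the smallest p in the interaction; and the 3 most abundant called genes in each direction. The members and lists were chosen with earlier results of these data known. Promoters are those of RefSeq (GRCh38.p14), 250 bases before to 50 after each start, counting each start listed, a choice made after the output of a version with 1 start per gene had been seen. Alternatives were no block, a pseudocount of 0.1, no filter, mean FPKM of at least 5, TPM scaling, median centring, the 6 libraries alone, no trend, replicate subsets and each library left out. TPM scaling moved the median of replicate 3 libraries by up to -0.104. Per-sample columns not used numbered 0.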

Additional observations from a re-analysis of the deposited data

How the results depend on the processing

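Without the replicate block the 2322 genes called with TGF-β became 127 and the 1674 called without TGF-β became 47; the cause was not tested. With only the 6 libraries compared and the block, 1125 genes were called with TGF-β, and asking in the full fit for a change of 1 or more on the log2 scale left 18. Leaving out 1 library gave 1249 to 1798 genes with TGF-β, 705 to 1398 without it and 0 to 1 in the interaction. Chosen after seeing the data, replicate numbers 1 and 3 gave 580 and 218 genes with and without TGF-β, and numbers 2 and 3 gave 546 and 273. The interaction, 0 genes with the 12 libraries, gave 1 gene with replicate numbers 1 and 2 (MIR4740), 1 without control replicate 2 (SMN1) and 1 without TGF-β replicate 3 (RPS23P8), all named after their values were seen. The naming rule took in 133 genes past the threshold, some of which, such as FASN and NARS, are not mentioned above. Of these 133, 14 stayed past it without the block, 130 with a pseudocount of 0.1 and 108 with no filter. The number was 129 with TPM scaling, 130 with median centring and 103 to 115 with 1 library left out. It was 101 with only the 6 libraries compared and 106 with replicate numbers 1 and 2 only. Chosen after seeing the data, numbers 1 and 3 left 71 and numbers 2 and 3 left 70. The log2 fold change of SPTBN1, not called and -0.000959 with the 12 libraries, changed sign without TGF-β replicate 1 (0.027), TGF-β replicate 3 (0.00267) or NH4Cl plus TGF-β replicate 1 (0.0807), within a range of -0.0519 to 0.0807 over the libraries left out, and with replicate numbers 2 and 3 only (0.0812); the cause was not tested. In a gene of 1 kb, 3 reads stand for 0.161 to 0.208 FPKM, below which values rest on few reads.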
